A study of Homo sapiens with 6 samples.

Results

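Matrix metalloproteinases (MMPs) were followed in mocetinostat- and DMSO-treated TC28a2 cells. The 10 genes *MMP1*, *MMP2*, *MMP3*, *MMP7*, *MMP9*, *MMP10*, *MMP13*, *MMP14*, *MMP16*, and *MMP24* were taken by gene name from the 60623 genes of the count table. TC28a2 is a line of immortalized human chondrocytes, the cells of cartilage. Mocetinostat inhibits class I histone deacetylases (HDACs). Cells received either 2 μM mocetinostat or the solvent DMSO for 24 hours before total RNA was collected, and the labels name no other agent, such as a cytokine. There were 3 samples per condition, which the study counts as independent experiments on this single cell line, and 6 samples in all.

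MMPs are zinc-dependent endopeptidases that are made as inactive proenzymes and cleave components of the ECM. In cartilage the collagenases MMP1 and MMP13 cut fibrillar collagens, the stromelysins MMP3 and MMP10 and the matrilysin MMP7 degrade proteoglycans and other matrix proteins and activate other proenzymes, and the gelatinases MMP2 and MMP9 digest denatured collagen. The membrane-type enzymes MMP14, MMP16, and MMP24 act at the cell surface, and TIMPs inhibit the active enzymes. Many MMP genes are induced by IL-1β and other cytokines through AP-1 and NF-κB.

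DMSO-treated samples held between 4873426 and 11031132 counts and mocetinostat-treated samples between 1619344 and 5089542, so that the treated samples measured scarce transcripts with less precision. Values are given as raw counts, as CPM (counts scaled to the library total) normalized by edgeR's TMM method, or, for comparisons between genes, as RPKM (CPM per kb of exon). Calls rest on the quasi-likelihood test of edgeR, adjusted by the Benjamini-Hochberg method, and need both an adjusted p under 0.05 and a log2 fold change above 1 (upregulated) or below -1 (downregulated). The chondrocyte markers *COL2A1*, *ACAN*, *SOX9*, *COMP*, *HAPLN1*, *MATN3*, *COL9A1*, *COL11A1*, and *COL11A2* summed to between 116.0 and 141.0 CPM with DMSO and between 257.8 and 299.2 CPM with mocetinostat. Of these 9 markers 7 were tested and 5 called upregulated, beside 20.2% of all genes tested. With DMSO most of the sum was *SOX9* (106.4 ± 13.6 CPM; SD, n = 3) while *COL2A1* stood at 2.20 ± 0.683 CPM. Fibroblast markers (*COL1A1*, *COL1A2*, *COL3A1*, *PDGFRA*, and *DCN*) summed to between 4499 and 5449 CPM with DMSO and between 4024 and 4394 CPM with mocetinostat, of which *COL1A1* held the most, while *PDGFRA* and *COL1A2* were called upregulated (log2 fold changes 3.82 and 1.73), *COL3A1* was called downregulated (-1.35), and *DCN* was not tested. The sums of 4 leukocyte markers lay between 2.44 and 4.79 CPM with DMSO and between 6.74 and 12.4 CPM with mocetinostat. Of these, *CD14* was called upregulated (0.915 ± 0.618 CPM with DMSO and 7.46 ± 2.97 CPM with mocetinostat; SD, n = 3), while *PTPRC*, *CD68*, and *ITGAM* had too few counts to test and *CD68* was at 0 in every mocetinostat-treated sample. The sums of 2 endothelial markers were between 3.39 and 5.83 CPM and between 7.44 and 9.53 CPM, respectively, with *PECAM1* called upregulated (log2 fold change 2.20) and *CDH5* at a log2 fold change of 0.12, which did not pass the test. The sums of 3 epithelial markers lay between 410.1 and 472.9 CPM with DMSO and between 804.4 and 829.1 CPM with mocetinostat, mostly from *KRT18*, while *EPCAM* and *CDH1* were called upregulated. To be tested, a gene had to pass an expression filter that asked for enough counts in 3 samples. With DMSO alone *COL2A1*, *COMP*, *MATN3*, *COL1A2*, *PDGFRA*, *CD14*, *PECAM1*, *EPCAM*, and *CDH1* would have fallen short of it. Their upregulated calls were thus partly set by the filter. No marker was at 0 in all 6 samples, and the part of these marker shifts in the MMP results was not tested. In bulk RNA, a change in the number of expressing cells and a change in RNA per cell cannot be told apart.

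The MMP genes did not move together. The collagenase and stromelysin genes on chromosome 11 (*MMP1*, *MMP13*, *MMP3*, and *MMP10*), the gelatinase gene *MMP9*, and the membrane-type gene *MMP24* were called upregulated, from 2.82-fold for *MMP9* to 20.9-fold for *MMP13*, with *MMP10* too scarce in DMSO for a firm fold. *MMP2* rose by 1.44-fold, *MMP14* fell to 0.537 of its DMSO level, and *MMP16* did not pass the test except under scaling to *GAPDH*. *MMP7* had too few counts and was not tested. Thus 9 of the 10 genes passed the expression filter, 6 were called upregulated, and 0 were called downregulated, where 20.2% and 8.18% of all 13966 genes tested were called upregulated and downregulated. At an adjusted p under 0.05 without a minimum fold change, 7 MMP genes were higher (32.9% of all genes tested) and 1 was lower (31.4%). No overlap between conditions was seen in 7 tested MMP genes with higher values under mocetinostat (33.7% of all genes) and in 1 with lower values (32.8%). The median log2 fold change of the 9 genes was 1.84, beside -0.00210 over all genes tested. *MMP13*, *MMP3*, and *MMP10* passed the expression filter only with the help of their mocetinostat-treated samples. These counts and this median were thus partly set by the filter. With a minimum of 10 counts in every sample, 6 MMP genes were tested and 3 were called upregulated.

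**Figure D1:**
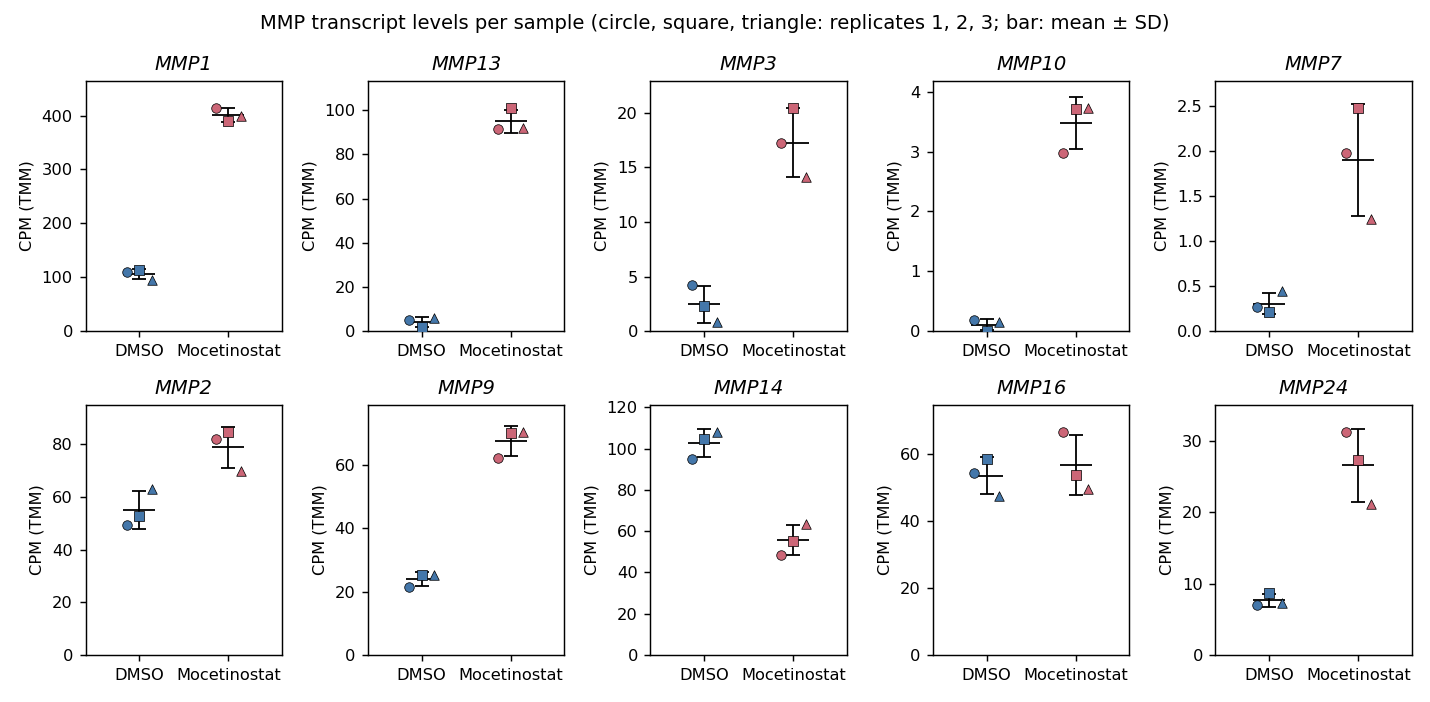
Each panel plots the TMM-normalized CPM of 1 MMP gene on a linear axis from 0 in 3 DMSO-treated (blue) and 3 mocetinostat-treated (red) samples, with the mean ± SD as bars and replicates 1, 2, and 3 as circle, square, and triangle. Only *MMP16* has overlapping conditions (47.6 to 58.7 CPM against 49.7 to 66.8 CPM), and only *MMP14* is lower in every mocetinostat-treated sample.

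The tested genes of the chromosome 11 cluster all rose. The 5 MMP genes on chromosome 11 of GRCh38 span 435.2 kb, from 102520508 to 102955732, and lie on the minus strand. Their median log2 fold change was 3.52 over the 4 genes tested, and all 4 were called upregulated (20.2% of all genes tested). The median of the 5 genes elsewhere, all tested, was 0.52, and 2 of them were called upregulated, beside the same 20.2%. These are counts over few genes chosen with results of these data known, and no test between the groups of genes was made. The expression filter asked for enough counts in 3 samples. In the DMSO-treated samples the lowest counts of *MMP13*, *MMP3*, and *MMP10* were 9, 6, and 0, short of its cutoff. These genes passed only with the help of their mocetinostat-treated samples. A gene this scarce with DMSO could hardly be tested unless it rose, so the shared direction was partly set by the filter.

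The RefSeq promoter table (GRCh38.p14) held entries for 4 of the 10 genes, *MMP7*, *MMP10*, *MMP14*, and *MMP24*, and not for *MMP1*, *MMP2*, *MMP3*, *MMP9*, *MMP13*, and *MMP16*. The 250 bases before the start of each are printed 5′ to 3′ on the gene's strand to set a pair of genes from the cluster beside a pair from elsewhere. Capitals mark exact matches, on either strand, to the AP-1 motif TGAGTCA, the TATA box TATAAA, the GC box GGGCGG, and the PEA3-type ETS motif AGGAAG.
MMP7 (chr11:102530748-102530997, minus strand): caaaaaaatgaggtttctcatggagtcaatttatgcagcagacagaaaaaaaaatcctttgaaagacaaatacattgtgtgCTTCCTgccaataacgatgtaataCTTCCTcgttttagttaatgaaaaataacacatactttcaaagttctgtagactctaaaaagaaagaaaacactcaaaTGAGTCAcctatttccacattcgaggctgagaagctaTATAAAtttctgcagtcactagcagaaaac
MMP10 (chr11:102780629-102780878, minus strand): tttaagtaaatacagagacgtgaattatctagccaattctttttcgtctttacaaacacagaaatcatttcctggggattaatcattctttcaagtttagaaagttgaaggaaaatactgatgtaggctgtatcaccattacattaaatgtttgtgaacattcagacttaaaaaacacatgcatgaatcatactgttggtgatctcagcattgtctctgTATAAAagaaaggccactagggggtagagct
MMP14 (chr14:22836335-22836584, plus strand): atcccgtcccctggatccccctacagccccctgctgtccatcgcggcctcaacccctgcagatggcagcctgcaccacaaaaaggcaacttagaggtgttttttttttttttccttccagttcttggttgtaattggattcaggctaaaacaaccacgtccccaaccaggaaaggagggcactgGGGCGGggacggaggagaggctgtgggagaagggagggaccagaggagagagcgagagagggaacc
MMP24 (chr20:35226440-35226689, plus strand): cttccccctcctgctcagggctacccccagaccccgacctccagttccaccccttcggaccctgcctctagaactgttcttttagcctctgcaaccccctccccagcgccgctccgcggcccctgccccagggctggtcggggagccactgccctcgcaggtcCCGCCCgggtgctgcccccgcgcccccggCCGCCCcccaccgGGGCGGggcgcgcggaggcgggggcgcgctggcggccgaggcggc

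Of these 4 windows, those of *MMP7* and *MMP10* held a TATA box and those of *MMP14* and *MMP24* held GC boxes, and the other 6 genes were not scanned. A TATA box starts 30 bases before the start of *MMP7* and 31 bases before that of *MMP10*, and 10.7% of all 35116 windows of this length hold one. *MMP7* also holds the AP-1 motif, 67 bases before its start, which is found in 4.20% of the windows, and 2 copies of the ETS motif, found in 28.7%. *MMP14* holds 1 GC box and *MMP24* 3, where 42.6% of the windows hold at least 1. The number of CpG dinucleotides in the window was 3 in *MMP7*, 2 in *MMP10*, 7 in *MMP14*, and 25 in *MMP24*, and the median over all windows was 11. No 2 of the motifs overlapped in these windows, and a match in letters says nothing of binding in these cells.

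*MMP1*, the interstitial collagenase gene (ENSG00000196611, chromosome 11 from 102789401 to 102798160), was the most abundant MMP gene per length in both conditions. In the order of replicates 1, 2, and 3, which is kept throughout, the DMSO samples held 1217, 547, and 645 counts, against 2090, 629, and 964 in the treated samples. The raw counts thus lay near each other because the treated libraries were shallower, while in normalized terms every mocetinostat-treated sample (389.8 to 414.3 CPM) was far above every DMSO-treated sample (95.1 to 113.9 CPM). Its log2 fold change was 1.92 (standard error 0.09, 95% confidence interval 1.75 to 2.09, adjusted p = 1.54e-31 by edgeR). The antisense pseudogene *WTAPP1* overlaps 8.14% of the *MMP1* exons, and *WTAPP1* itself held 1 count over all 6 samples.

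*MMP13*, which encodes collagenase-3, a main type II collagen-degrading enzyme of cartilage (ENSG00000137745, chromosome 11 from 102942995 to 102955732), went from seventh to second place per length among the 10 genes. The DMSO samples held 54, 9, and 40 counts, against 462, 163, and 222 in the treated samples. DMSO replicate 2 was the lowest, at 1.87 CPM against 4.89 and 5.90 CPM, and the mocetinostat-treated samples were close to each other, at 91.6, 101.0, and 92.0 CPM. The coefficient of variation was 49.6% with DMSO and 5.61% with mocetinostat. The log2 fold change was 4.39 (standard error 0.18, 95% confidence interval 4.03 to 4.74, adjusted p = 4.98e-34 from the edgeR test), a 20.9-fold difference. A log2 fold change at least as high was reached by 3.24% of all genes tested.

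The stromelysin genes *MMP3* and *MMP10* were both scarce with DMSO. *MMP3* (ENSG00000149968, chromosome 11 from 102835801 to 102843609) held 47, 11, and 6 counts in the DMSO samples, against 87, 33, and 34 in the treated samples. Its DMSO values were 4.25, 2.29, and 0.884 CPM in replicates 1, 2, and 3, a wide spread, but all were below the lowest mocetinostat-treated sample at 14.1 CPM. The log2 fold change of *MMP3* was 2.66 (standard error 0.33, 95% confidence interval 2.01 to 3.31, adjusted p = 6.46e-11 from the edgeR test). The value was 3.47 without DMSO replicate 1 and 2.24 without DMSO replicate 3. *MMP10* (ENSG00000166670, chromosome 11 from 102770502 to 102780628) held 2, 0, and 1 counts in the DMSO samples, against 15, 6, and 9 in the treated samples. From the 30 counts against 3, the ratio of normalized totals was 25.0 (95% exact interval for counting error only, 7.76 to 127.8). The edgeR test gave an adjusted p of 6.41e-07 for *MMP10*, and its fitted log2 fold change of 4.46 depends on the prior count because of the near-empty DMSO samples.

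*MMP7*, the matrilysin gene at the outer end of the cluster (ENSG00000137673, chromosome 11 from 102520508 to 102530750), was at the limit of detection. The DMSO samples held 3, 1, and 3 counts, against 10, 4, and 3 in the treated samples, or 17 counts against 7 in total. The normalized values were 0.271, 0.208, and 0.442 CPM with DMSO and 1.98, 2.48, and 1.24 CPM with mocetinostat, without overlap. The ratio of normalized totals was 6.06 (95% exact interval for counting error only, 2.39 to 17.3). *MMP7* was removed by the expression filter. Without the filter its adjusted p was 0.0709 from the edgeR test, with DESeq2 it was 0.0535, and it passed the filter and was called upregulated without DMSO replicate 2 (log2 fold change 2.35) and without mocetinostat replicate 3 (log2 fold change 2.70).

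Both gelatinase genes rose, *MMP9* more than *MMP2*. *MMP9* (ENSG00000100985, chromosome 20 from 46008908 to 46016561) held 236, 121, and 171 counts in the DMSO samples, against 313, 113, and 170 in the treated samples. Its values were 21.4, 25.2, and 25.2 CPM with DMSO and 62.1, 70.0, and 70.5 CPM with mocetinostat, a tight separation on both sides. The log2 fold change of *MMP9* was 1.50 (standard error 0.14, 95% confidence interval 1.22 to 1.78, adjusted p = 2.51e-15 from the edgeR test). The antisense gene *SLC12A5-AS1* covers 18.4% of the *MMP9* exons and rose from 2.01 ± 0.527 to 8.49 ± 2.01 CPM (SD, n = 3). Whether the counting used strand is not stated, so the reads of the 2 genes cannot be told apart to that extent. *MMP2* (ENSG00000087245, chromosome 16 from 55389700 to 55506691) held 546, 253, and 428 counts in the DMSO samples, against 413, 137, and 169 in the treated samples. *MMP2* stood at 55.1 ± 7.14 CPM with DMSO and 78.9 ± 7.85 CPM with mocetinostat (SD, n = 3), a log2 fold change of 0.52 (95% confidence interval 0.28 to 0.77, adjusted p = 0.000177 from the edgeR test), under the threshold for a call. DMSO replicate 3 was the highest of its group at 63.1 CPM and mocetinostat replicate 3 the lowest of its group at 70.0 CPM, so the conditions were close but did not overlap.

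*MMP14*, which encodes a membrane-type enzyme that activates pro-MMP2 at the cell surface (ENSG00000157227, chromosome 14 from 22836560 to 22849041), was the exception in direction. The DMSO samples held 1050, 502, and 735 counts, against 245, 89, and 153 in the treated samples. All mocetinostat-treated samples (48.6, 55.2, and 63.4 CPM) were below all DMSO-treated samples (95.0, 104.5, and 108.3 CPM). *MMP14* fell by 0.90 on the log2 scale (standard error 0.12, adjusted p = 8.33e-10 by edgeR), and the 95% confidence interval, from -1.14 to -0.66, includes the threshold for a downregulated call. It was called downregulated without mocetinostat replicate 3 (log2 fold change -1.02) and without an expression filter (-1.15), and it stayed lower, at -0.36, under scaling to *GAPDH*.

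*MMP24* and *MMP16*, the other membrane-type genes of the 10, differed from *MMP14* and from each other. *MMP24* (ENSG00000125966, chromosome 20 from 35226690 to 35276998) held 78, 42, and 49 counts in the DMSO samples, against 158, 44, and 51 in the treated samples. In normalized terms it stood at 7.06, 8.75, and 7.22 CPM with DMSO and at 31.3, 27.3, and 21.1 CPM with mocetinostat. The log2 fold change of *MMP24* was 1.84 (standard error 0.22, 95% confidence interval 1.40 to 2.27, adjusted p = 2.02e-11 from the edgeR test). Exons of *MMP24OS* on the opposite strand cover 18.4% of the *MMP24* exons, and *MMP24OS* was at 38.2 ± 1.64 CPM with DMSO and at 53.1 ± 11.1 CPM with mocetinostat (SD, n = 3; log2 fold change 0.44, adjusted p = 0.00444 by edgeR). As for *MMP9*, strand use in the counting is not stated, so reads of *MMP24* and the more abundant *MMP24OS* cannot be told apart to that extent. *MMP16* (ENSG00000156103, chromosome 8 from 88032011 to 88328025) held 602, 282, and 323 counts in the DMSO samples, against 337, 87, and 120 in the treated samples. Its values overlapped, at 53.6 ± 5.61 CPM with DMSO and 56.8 ± 8.90 CPM with mocetinostat (SD, n = 3). With a 95% confidence interval from -0.14 to 0.38 around a log2 fold change of 0.12 (adjusted p = 0.441 from the edgeR test), a change in *MMP16* as large as the threshold lies outside the interval.

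**Figure D2:**
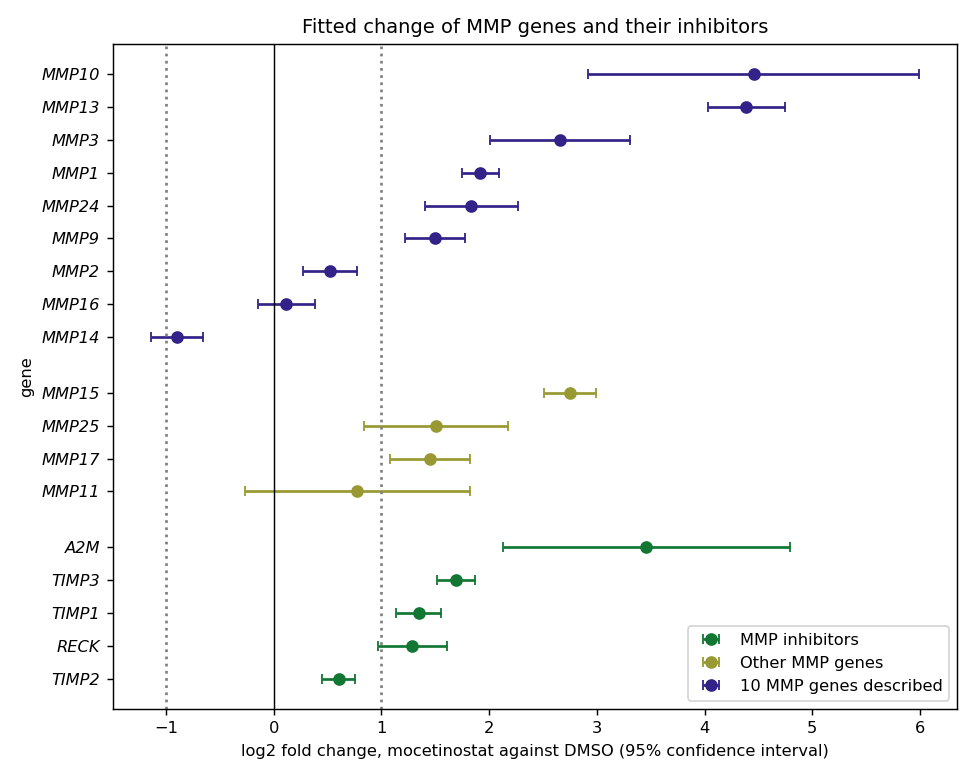
Points are log2 fold changes of mocetinostat against DMSO from edgeR with 95% confidence intervals, for the tested genes among the 10 MMP genes, the other MMP genes, and the MMP inhibitors, and dotted lines mark -1 and 1. *MMP10* (4.46) and *MMP13* (4.39) are the highest and *MMP14* (-0.90) is the lowest, and *MMP10* has the widest interval.

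Per length, the order of the 10 MMP genes changed with treatment. With DMSO the order was *MMP1* (38.8 ± 3.64 RPKM; SD, n = 3), *MMP14* (22.2 ± 1.49), *MMP2* (11.7 ± 1.52), *MMP9* (10.2 ± 0.951), *MMP16* (4.43 ± 0.463), *MMP24* (1.75 ± 0.213), *MMP13* (1.49 ± 0.739), *MMP3* (1.34 ± 0.912), *MMP7* (0.132 ± 0.0522), and *MMP10* (0.0622 ± 0.0547). Neighbours whose samples overlapped in this order were *MMP2* and *MMP9*, *MMP24* and *MMP13*, *MMP13* and *MMP3*, and *MMP7* and *MMP10*. With mocetinostat the order was *MMP1* (146.5 ± 4.51 RPKM), *MMP13* (33.5 ± 1.88), *MMP9* (28.9 ± 2.03), *MMP2* (16.8 ± 1.67), *MMP14* (12.1 ± 1.61), *MMP3* (9.31 ± 1.72), *MMP24* (6.07 ± 1.17), *MMP16* (4.69 ± 0.735), *MMP10* (1.97 ± 0.246), and *MMP7* (0.820 ± 0.268). Here the overlapping neighbours were *MMP14* and *MMP3* and *MMP24* and *MMP16*. *MMP13* moved from the seventh to the second place and *MMP14* from the second to the fifth.

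The total of the 10 genes and its makeup shifted together. The 10 genes summed to 356.3 ± 10.8 CPM with DMSO and 804.3 ± 17.2 CPM with mocetinostat (SD, n = 3). The chromosome 11 genes held 31.9% ± 2.79 of this sum with DMSO and 64.5% ± 0.514 with mocetinostat. *MMP1* alone held between 26.9% and 31.7% of the sum with DMSO and between 48.2% and 50.9% with mocetinostat. The share of *MMP14* fell from between 27.4% and 30.6% to between 5.93% and 8.07%, and that of *MMP13* grew from between 0.509% and 1.67% to between 11.2% and 12.5%. Per length, *MMP1* was 16.7 to 62.9 times as abundant as *MMP13* in the DMSO-treated samples and 3.99 to 4.68 times in the mocetinostat-treated samples.

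The cluster region was then viewed with its neighbours. The span holds 9 MMP genes, and besides the 4 genes called upregulated and *MMP7*, *MMP8*, *MMP12*, *MMP20*, and *MMP27* were in the count table and had too few counts to test. *MMP12*, the macrophage elastase gene between *MMP3* and *MMP13*, held 0 counts in every DMSO-treated sample and 4, 3, and 1 counts with mocetinostat. Against a floor of 3 counts over the DMSO group the ratio of normalized totals was 6.66, which leaves out the counting error of the few treated counts. *MMP8* held 2 counts with DMSO and 1 with mocetinostat, and *MMP20* held 0 and 1. *MMP27* held 0 counts in all 6 samples, which allows up to 0.133 CPM with DMSO and 0.331 CPM with mocetinostat.

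Within 1 Mb on either side of the cluster, 9 other protein-coding genes were in the table. Of these, 7 were tested, with 2 upregulated calls, 2 downregulated calls, and a median log2 fold change of -0.18. Over all genes tested 20.2% were called upregulated and 8.18% downregulated. Nearest was *TMEM123*, 50.1 kb beyond *MMP7*, with a log2 fold change of 0.40 (adjusted p = 1.51e-05 from the edgeR test). On the same side followed the inhibitor of apoptosis genes *BIRC2* (-0.18, adjusted p = 0.220) and *BIRC3*, which was called upregulated (1.90, adjusted p = 9.47e-11) at a distance of 181.1 kb, the Hippo pathway coactivator gene *YAP1*, which was called downregulated (-1.02, adjusted p = 1.47e-13), and *CEP126*, which was called upregulated (1.06, adjusted p = 0.00343). Beyond *MMP13* lay *DCUN1D5*, with a log2 fold change of -0.34 (adjusted p = 0.0115), and the dynein gene *DYNC2H1*, which was called downregulated (-1.13, adjusted p = 5.51e-12). The flanking genes thus showed both directions, while the 4 tested cluster genes shared 1. Since *MMP3*, *MMP10*, and *MMP13* passed the expression filter only with the help of their mocetinostat-treated samples, this contrast is partly set by the filter.

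**Figure D3:**
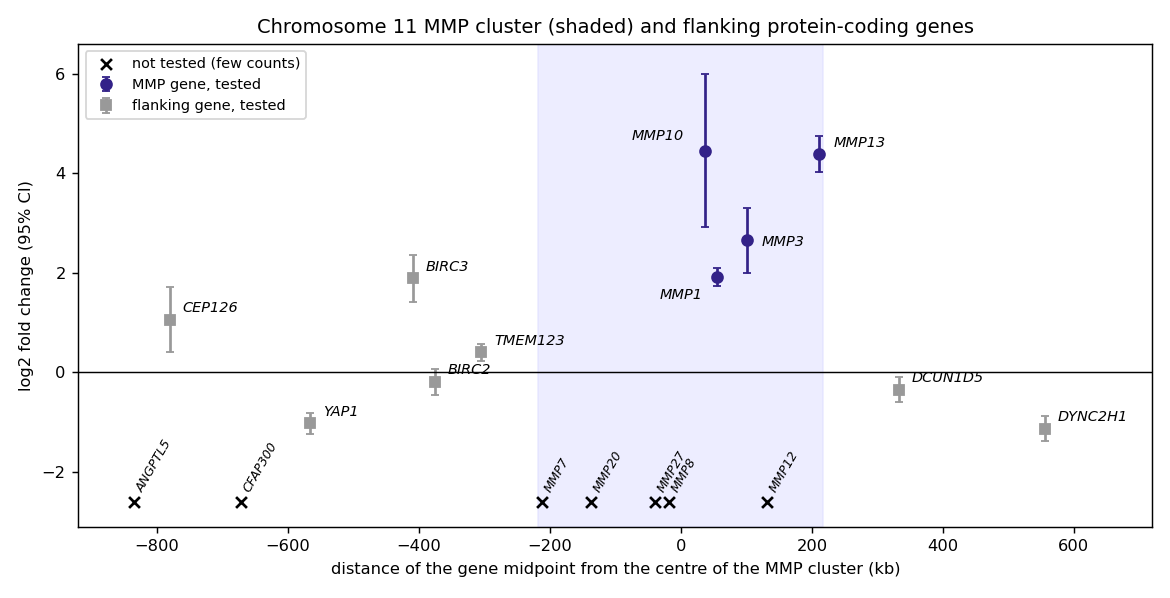
The x axis gives the distance of each gene's midpoint from the centre of the MMP cluster in kb and the y axis the edgeR log2 fold change with its 95% confidence interval; the shaded band is the 435.2 kb cluster, circles are MMP genes, squares are flanking protein-coding genes, and crosses are genes not tested, drawn at an arbitrary height. The 4 tested cluster genes lie between 1.92 and 4.46, and the 7 flanking genes between -1.13 and 1.90.

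Among the 14 other MMP symbols in the table, 4 passed the expression filter and 3 were called upregulated (20.2% of all genes tested). *MMP15*, a further membrane-type gene (ENSG00000102996), held 252, 107, and 163 counts in the DMSO samples, against 777, 275, and 348 in the treated samples. It rose from 23.0 ± 0.894 to 156.2 ± 13.2 CPM (SD, n = 3; log2 fold change 2.75, standard error 0.12, adjusted p = 2.76e-32 by edgeR). The GPI-anchored membrane-type genes *MMP17* and *MMP25* had log2 fold changes of 1.45 (adjusted p = 3.06e-10) and 1.51 (adjusted p = 6.77e-05), and *MMP11* had 0.78 (adjusted p = 0.193). Of the genes not tested, *MMP28* held 1 count with DMSO and 14 with mocetinostat, *MMP19* 42 and 17, and *MMP21* 0 and 2. In normalized terms *MMP19* was level, at 1.95 ± 0.481 CPM with DMSO and 1.91 ± 0.149 CPM with mocetinostat (SD, n = 3). *MMP23B* held 5 counts, all in DMSO replicate 1, while *MMP26* and the pseudogene *MMP23A* were at 0 throughout.

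With *MMP15* included, the leading membrane-type transcript changed. With DMSO *MMP14* led, at 22.2 ± 1.49 RPKM against 5.44 ± 0.211 RPKM for *MMP15* (SD, n = 3). With mocetinostat *MMP15* led, at 36.9 ± 3.13 RPKM against 12.1 ± 1.61 RPKM for *MMP14*. The ratio of *MMP15* to *MMP14* per length was 0.262, 0.233, and 0.242 in the DMSO samples, against 3.47, 3.38, and 2.49 in the treated samples, so that it was below 1 in every DMSO-treated sample and above 1 in every mocetinostat-treated sample. Ratios within a library do not depend on the scaling between libraries. Of the 6 membrane-type genes tested, *MMP15*, *MMP17*, *MMP24*, and *MMP25* were called upregulated (20.2% of all genes tested), *MMP16* did not pass the test, and *MMP14* was lower.

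**Figure D4:**
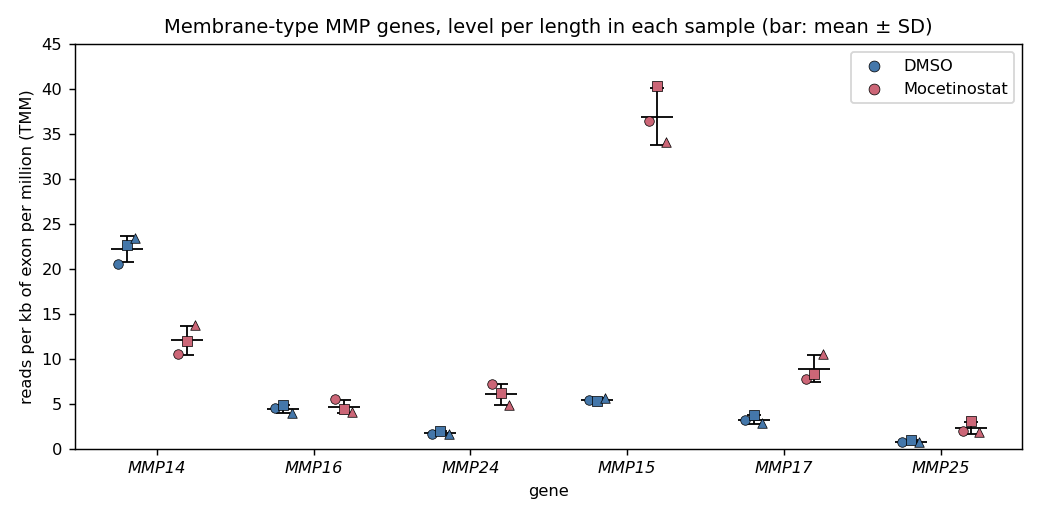
The y axis gives TMM-normalized RPKM (CPM per kb of exon) for 6 membrane-type MMP genes in each DMSO-treated (blue) and mocetinostat-treated (red) sample, with the mean ± SD as bars and replicates 1, 2, and 3 as circle, square, and triangle. *MMP14* is the highest with DMSO (20.5 to 23.4 RPKM) and *MMP15* with mocetinostat (34.1 to 40.3 RPKM).

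The inhibitors of these enzymes also rose. Of 6 inhibitor genes 5 were tested, and their median log2 fold change was 1.35. All 5 were higher at an adjusted p under 0.05 (32.9% of all genes tested) and 4 were called upregulated (20.2% of all genes tested). Among them *A2M* passed the expression filter only with the help of its mocetinostat-treated samples, so its place in these counts was partly set by the filter. *TIMP1* held 763, 443, and 449 counts in the DMSO samples, against 938, 287, and 502 in the treated samples (log2 fold change 1.35, adjusted p = 7.24e-19 by edgeR). *TIMP3*, whose product binds to the ECM, went from 97.3 ± 7.63 to 313.2 ± 12.8 CPM (SD, n = 3; log2 fold change 1.69, adjusted p = 1.47e-27). *TIMP2*, which takes part with MMP14 in pro-MMP2 activation, rose by less, with a log2 fold change of 0.60 (adjusted p = 2.54e-10). *RECK*, a membrane-anchored MMP regulator, had a log2 fold change of 1.29 (adjusted p = 7.44e-11). *A2M*, a broad protease inhibitor, was the highest of the list at 3.46 (adjusted p = 5.98e-06) from 8 DMSO counts, 7 of them in replicate 3, and *TIMP4* held 0 counts with DMSO and 2 with mocetinostat. Per length, the 10 MMP genes summed to 0.756, 0.678, and 0.797 of the sum of the 4 TIMP genes in the DMSO samples, against 0.970, 0.941, and 0.905 in the treated samples. Both sums thus grew with treatment, and the ratio was higher in each mocetinostat-treated sample; these are RNA levels, not enzyme activity.

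Genes of proenzyme activation and of transcriptional control of MMPs are given by list, beside 20.2% upregulated and 8.18% downregulated calls over all genes tested. Of 11 genes of the plasminogen activator system, the proprotein convertases, and other activating proteases, 9 were tested, 4 were called upregulated, and 0 were called downregulated. The proprotein convertase gene *PCSK5* was the highest with a log2 fold change of 5.27 (adjusted p = 7.80e-15 from the edgeR test; 8 counts with DMSO, all in replicate 3, and 132 with mocetinostat), and *PLAU*, the urokinase gene, was the lowest at -0.64 (adjusted p = 2.91e-08). Of the 7 AP-1 genes, all tested, 3 were called upregulated and 1 downregulated. *FOS* was the highest, from 4.64 ± 0.888 to 25.1 ± 3.19 CPM (SD, n = 3; log2 fold change 2.44, adjusted p = 8.63e-14). *FOSL1* was the lowest, from 172.8 ± 27.5 to 63.0 ± 8.84 CPM (log2 fold change -1.48, adjusted p = 4.60e-19). Of 12 other transcription factor genes, 3 were called upregulated and 2 downregulated, with *ETV1*, an ETS factor of the PEA3 group, the highest at 3.89 (adjusted p = 2.56e-17) and *NFKB1*, which encodes the p50 precursor of NF-κB, the lowest at -1.77 (adjusted p = 5.71e-17). Of 21 genes for cytokines, growth factors, and cell surface receptors that control MMP levels, 18 were tested, 6 were called upregulated, and 2 were called downregulated. *AREG*, an EGF receptor ligand, was the highest at 6.30 (adjusted p = 7.77e-26 by edgeR), from 9 counts with DMSO and 287 with mocetinostat. *LIF* was the lowest at -1.71 (adjusted p = 7.31e-22 by edgeR). Among the genes called upregulated, *PCSK5*, *ETV1*, *IL1B*, *AREG*, and *EREG* passed the expression filter only with the help of their mocetinostat-treated samples. The counts of upregulated calls in their lists were thus partly set by the filter.

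The genes with profiles most like those of the 3 genes among the 10 with the highest mean RPKM over the samples were sought by Pearson's r of log2 CPM over the 6 samples. For *MMP1* they were *ELL2*, *TDRKH*, and *ARFGEF3*, for *MMP9* *ARHGAP45*, *ADAMTSL4*, and *WNT7B*, and for *MMP13* *PIM1*, *RECK*, and *RRAS*, with r between 0.9989 and 0.9997. High values are common here, because the r rests on the contrast between the conditions. An r over 0.95 was reached with *MMP1* by 17.4%, with *MMP9* by 16.9%, and with *MMP13* by 14.1% of the 13965 other genes. How many genes came as close as the named ones was not counted.

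**Figure D5:**
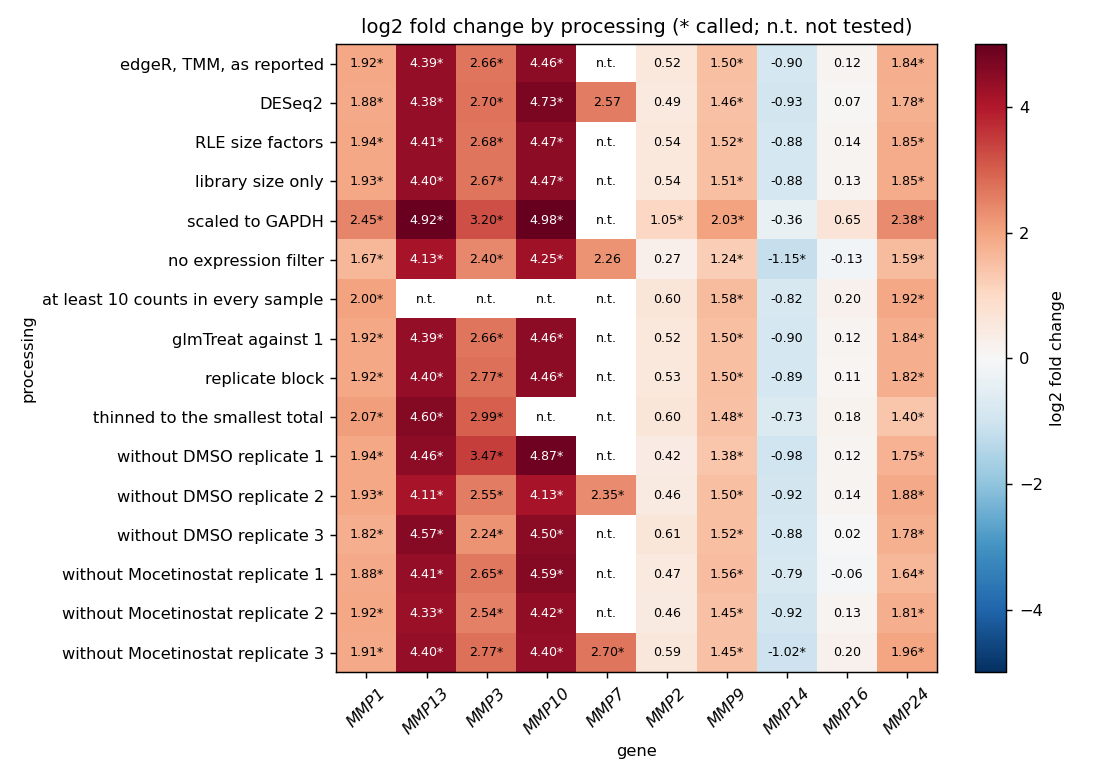
Cells give the log2 fold change of each MMP gene (columns) as reported and under each other processing of the counts (rows), coloured from blue (negative) to red (positive), with an asterisk where the gene was called and n.t. where it was not tested. The values of *MMP1* lie between 1.67 and 2.45 and those of *MMP13* between 4.11 and 4.92, while *MMP16* takes both signs.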

How the data were processed

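RNA-Seq was measured in 6 samples of TC28a2 cells, 3 per condition. The authors deposited raw counts of reads per gene, without normalization. Per the paper's methods and the submitters' processing notes, single reads were trimmed, freed of ribosomal RNA reads, aligned to GRCh38 with STAR 2.6.1d, and counted with featureCounts 1.6.4; the strand setting and the treatment of reads mapping to several genes are not given in the sources used here. Columns were matched to samples by name.

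edgeR 4.0.16 (R 4.3.3) kept 13966 genes by filterByExpr at its default minimum count of 10, computed TMM factors, and fitted the treatment only, with Benjamini-Hochberg adjustment over all genes tested. DESeq2 1.42.0 and other alternatives are described at the end. The 3 samples per condition differed by more than sampling noise (chi-square per degree of freedom from 1.96 to 7.19 within conditions). The common biological coefficient of variation was 9.30%. Counting intervals are exact (Clopper-Pearson on the pooled counts) and cover counting error only, since reads carry no molecular identifiers. Positions and union exon lengths are from GENCODE release 44 (GRCh38), to which 99.5% of gene identifiers matched; promoter sequences are from RefSeq (GRCh38.p14). The fits were tested on simulated data in which only well-counted genes were changed, so that test does not cover genes as scarce as *MMP10*.

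Named were all 10 MMP genes, the other MMP symbols, the highest and lowest tested gene of each list, the TIMP genes and *RECK*, tested neighbours on chromosome 11, and the 3 most similar profiles; *GAPDH*, antisense genes, and cell type markers were added as checks. The MMP genes and lists were chosen with earlier results of these data known.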

Additional observations from a re-analysis of the deposited data

How the results depend on the processing

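The 6 MMP genes called upregulated kept their call under every alternative in which they were tested: DESeq2, RLE factors, no factors, scaling to GAPDH, omission of the expression filter, a minimum of 10 counts in all samples, glmTreat, the replicate block, thinning to the smallest total, and leaving out each sample. With this minimum *MMP13*, *MMP3*, and *MMP10* were not tested and 3 MMP genes were called upregulated; after thinning *MMP10* was not tested and 5 were called. Without single samples 6 to 7 were called upregulated and 0 to 1 downregulated. *MMP14* was called downregulated without an expression filter, giving 1 MMP gene, and without mocetinostat replicate 3. *MMP2* was called only under GAPDH scaling (1.05), and without an expression filter its adjusted p was 0.107 (edgeR). *MMP16* changed sign without an expression filter (-0.13) and without mocetinostat replicate 1 (-0.0622; range without single samples -0.0622 to 0.20), and passed the test, at 0.65 (adjusted p = 6.54e-05 by edgeR), only under GAPDH scaling. GAPDH scaling raised the median log2 fold change of the genes tested by 0.54, and omitting the filter shifted it by -0.25; *GAPDH* itself had a log2 fold change of -0.53 under TMM. Over all genes, 2827 were called upregulated and 1142 downregulated, so that 71.2% were upregulated. The counts were 4425 and 284 under GAPDH scaling (94.0% upregulated), 1620 and 704 with the minimum of 10, 2120 downregulated without the filter (60.2% upregulated), 465 downregulated with glmTreat (81.6% upregulated), and 2842 to 3216 upregulated and 1173 to 1267 downregulated without single samples. With the replicate number as a block, 2798 and 1133 genes were called and the MMP counts stayed at 6 and 0. Deviations of same-numbered samples correlated between -0.0162 and 0.0116, and not every sample correlated best with its own number. With so few samples per condition, these correlations cannot tell whether same-numbered samples came from the same experiment. The cause of these shifts was not tested. Genes with few counts with DMSO are limited by depth.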

Other observations

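Of 11 genes for ECM components that MMPs cleave, 9 were tested, and their median log2 fold change was 0.63. There were 3 upregulated calls and 1 downregulated call, beside 20.2% and 8.18% over all genes tested. Of the genes called upregulated, *COL2A1* and *COL1A2* passed the expression filter only with the help of their mocetinostat-treated samples. *COL2A1*, the type II collagen gene, was the highest, at 2.20 ± 0.683 CPM with DMSO and 28.7 ± 7.54 CPM with mocetinostat (SD, n = 3; log2 fold change 3.70, adjusted p = 2.22e-20 by edgeR). *COL3A1*, the type III collagen gene, was the lowest, at 528.0 ± 40.7 CPM with DMSO and 208.3 ± 8.02 CPM with mocetinostat (SD, n = 3; log2 fold change -1.35, adjusted p = 1.10e-24 by edgeR).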
